A study of Mus musculus with 24 samples.

Results

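Fatty acid oxidation and ketogenesis were followed through 39 genes: the enzymes that activate fatty acids, carry them into mitochondria, shorten them in mitochondria and peroxisomes, oxidise their far end in microsomes and hydrolyse the products, with a ketone body enzyme and a pair of genes of fuel choice. Members were taken as array probes whose gene name matched one of the 39 symbols exactly, out of 20192 gene names with a tested probe. By their main site of action 16 members were mitochondrial and 10 peroxisomal, and the remaining 13 acted in both organelles or elsewhere in the cell. All 39 had a tested probe, 24 had 1 and 15 had several, and the brightest tested probe, from which each gene was read, was well above background on 24 of 24 arrays for every member.

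RNA from 24 livers of male C57Bl6J mice, 1 mouse per array, was hybridised to single-colour Agilent mouse arrays. The reference group (STD_Cont, 9 mice) belonged to the control fatty acid lineage, whose diet was enriched in oleic acid over generations, and was given the standard low-fat diet. The HFoleic group (HFD_Cont, 8 mice) came from that same lineage and the HFepa group (HFD_O3, 7 mice) from a lineage supplemented with the omega 3 fatty acid EPA, and both ate the high-fat, high-sucrose obesogenic diet. The design therefore asked how the obesogenic diet changed the liver and whether the lineage changed that response. No omega 3 lineage on the standard diet was analysed here, so a lineage effect present without the obesogenic diet cannot be told apart from one on the response to it. Ages and litters are not given in the labels, and whether mice of a group shared a litter is not known. The p-values treat the mice as independent and measure the spread between these mice.

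Long-chain fatty acids are first joined to coenzyme A, then passed to carnitine by Cpt1a, the controlled step of entry into mitochondria, and are cut there by repeated rounds of beta-oxidation. In the fasted liver much of the acetyl-CoA formed becomes ketone bodies. Peroxisomes shorten very long and dicarboxylic fatty acids, the latter made by Cyp4a hydroxylases, and many of these genes respond to PPARalpha, a nuclear receptor activated by fatty acids. Transcript levels in bulk liver do not separate fewer cells of a type from less RNA per cell.

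The arrays had 50.9% to 60.8% of probes well above background, no saturated spots, and correlations of 0.974 to 0.996 within groups. The signals of the 8 hepatocyte markers were summed and put on the log2 scale, which weighs the brightest genes most. This sum spanned 20.460 to 20.553 in reference mice, 20.461 to 20.544 in HFoleic mice and 20.457 to 20.547 in HFepa mice. All 8 were detected. Cps1 among them was lower in HFoleic than in the reference group (log2 difference -0.89, adjusted p = 0.00166, limma). No gene passed in the adipocyte, skeletal muscle, exocrine pancreas, bile duct, red blood cell and macrophage lists in any comparison, and Adipoq, Ckm, Acta1, Cpa1, Pnlip, Epcam, Muc1 and Cftr were not tested because their probes were too dim. Reference replicate 3 had the highest skeletal muscle sum of all mice, 10.647 against 8.185 to 8.953 in the other reference mice. HFoleic replicate 6 had the highest adipocyte sum, 13.512 against 10.027 to 12.224 in the other HFoleic mice. Adipocyte sums ran from 9.671 to 12.790 in reference mice and from 9.761 to 12.631 in HFepa mice. The part of adipose tissue in the members' values was not tested. Reference replicate 5 stood apart: it was the lowest of its group for 26 of the 39 members and the highest for 2. Its bile duct sum, over Krt19 and Krt7, was 8.60 against 6.908 to 7.999 in the other reference mice, and its gluconeogenesis sum was the highest of the group at 19.3. The part of either in the results was not tested. Calls of members that rest on this mouse are given with and without it, and the other values are given with all mice included. HFoleic replicate 2 had the same counts in its own group, 26 lowest and 2 highest, and is treated likewise.

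The obesogenic diet in the oleic lineage lowered 7 of the 39 members and raised 1. The genes that fell were Cpt1a and Crat of carnitine transfer, the thioesterase Acot2, Ehhadh of the peroxisome, the acyl-CoA synthetase Acsl4, and the microsomal hydroxylases Cyp4a10 and Cyp4a14, by 0.43 to 1.12 on the log2 scale. Bdh1, which makes the ketone body beta-hydroxybutyrate, rose by 0.51. Of the 9 enzymes of the mitochondrial beta-oxidation cycle 0 passed at their brightest probe, although a dimmer probe of Etfdh did. In the EPA lineage on the same diet 0 members differed from the reference group, and 0 differed between the EPA and oleic lineages.

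These counts come from limma, with Benjamini-Hochberg adjustment over all 30003 tested probes and calls at an adjusted p under 0.05. Of the 39 members 20.5% were called in HFoleic against reference, beside 8.07% of all 20192 genes, with 17.9% of members lower beside 3.55% of genes and 2.56% higher beside 4.52%. The members were chosen with earlier results of these data known, so these shares are not an independent test. HFepa against reference had 0 of 39 members beside 0.391% of genes, with 3 members higher and 3 lower at an unadjusted p under 0.05, a level that 14% of genes reached. HFepa against HFoleic had 0 of 39 beside 0% of genes, and at an unadjusted p under 0.05 there were 9 members higher and 1 lower, beside 9.964% of genes. The median log2 difference of the members was -0.04, 0.06 and 0.06 in the 3 comparisons in that order, and the median of all genes was -0.0062, 0.0008 and 0.0054.

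**Figure D1:**
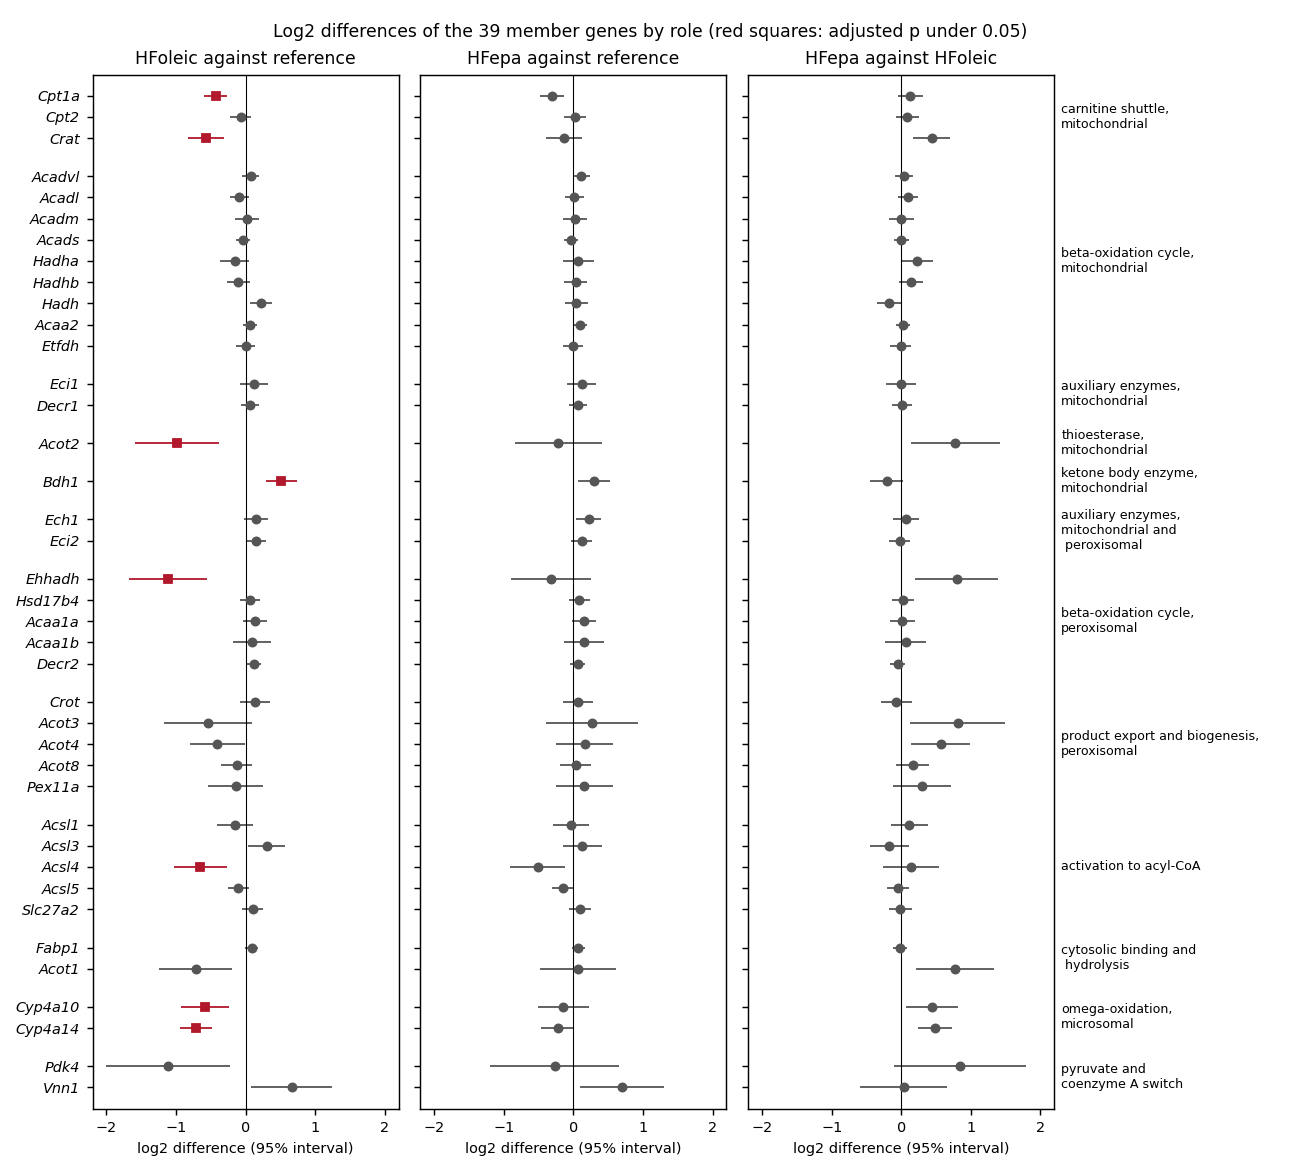
Log2 difference of each of the 39 members in the 3 comparisons, with 95% intervals from limma; the vertical position is the gene, ordered by role, and red squares mark an adjusted p under 0.05. Red squares appear only in the HFoleic against reference panel, 7 on the left of 0 and 1, Bdh1, on the right.

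Mitochondrial and peroxisomal steps were then taken apart. Among the 16 mitochondrial members Cpt1a, Crat and Acot2 fell and Bdh1 rose in HFoleic against reference, and the median difference was -0.02. Among the 10 peroxisomal members Ehhadh fell and the other 9 did not pass, with a median of -0.03. Among the remaining 13, Acsl4, Cyp4a10 and Cyp4a14 fell, with a median of -0.10. In HFepa against reference the same medians were 0.03, 0.12 and 0.06, and in HFepa against HFoleic 0.03, 0.11 and 0.07, with no gene past the test in any compartment. The difference between compartments was not tested.

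Activation of fatty acids to acyl-CoA was read from Acsl1, Acsl3, Acsl4, Acsl5 and the transporter and very-long-chain synthetase Slc27a2. Of these 5, Acsl4, which prefers arachidonic acid and other polyunsaturated fatty acids, was the gene that passed. Acsl4 (chrX:138752602-138752661, mm9) spanned log2 signals of 11.53 to 13.55 in the reference mice, with a median of 12.06, against 11.19 to 11.78 with a median of 11.40 in HFoleic and 11.34 to 11.74 with a median of 11.68 in HFepa. The top reference value belonged to replicate 5, and 5 of the 8 HFoleic mice lay below every reference mouse. HFoleic was at 0.635 of the reference level (log2 difference -0.65, SE 0.18, adjusted p = 0.0301, limma; lower in 8 of 8 mice), and HFepa differed by -0.51 from the reference group (adjusted p = 0.22; below the reference mean in 7 of 7 mice). Without reference replicate 5 the HFoleic difference was -0.48 with an adjusted p of 0.0124. The other 2 probes of Acsl4 gave -0.57 and -0.52 and did not pass (adjusted p = 0.0712 and 0.138, limma). Acsl3 differed by 0.30 (adjusted p = 0.172), and Acsl1, Acsl5 and Slc27a2 also did not pass.

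In the carnitine shuttle, 2 of 3 genes fell. Cpt1a (chr19:3385374-3385433), which forms acylcarnitines on the outer mitochondrial membrane, ranged from 14.82 to 15.22 with a median of 15.05 in reference mice. HFoleic mice ranged from 14.44 to 14.98, median 14.62, and HFepa mice from 14.40 to 15.12, median 14.74. All but 1 of the 8 HFoleic mice were below every reference mouse, while the HFepa mice overlapped both groups. Mean log2 signals were 15.1 ± 0.111 (SD, n = 9 reference mice), 14.6 ± 0.165 (SD, n = 8 HFoleic mice) and 14.8 ± 0.220 (SD, n = 7 HFepa mice). Cpt1a was at 0.741 of the reference level in HFoleic (log2 difference -0.43, SE 0.08, adjusted p = 0.00239, limma). Its HFepa difference from the reference group was -0.30, with a 95% interval of -0.48 to -0.13, below the reference mean in 6 of 7 mice, and missed the threshold (adjusted p = 0.0982). That call changed with single mice: without HFepa replicate 3 it was -0.36 (adjusted p = 0.0291), and without reference replicate 8 it was -0.33 (adjusted p = 0.0424).

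Crat, the carnitine acetyltransferase that exchanges short acyl groups between coenzyme A and carnitine, was measured at chr2:30257684-30257743. Reference mice spanned 13.13 to 13.83 (median 13.44), HFoleic mice 12.36 to 13.24 (median 12.93) and HFepa mice 12.99 to 13.49 (median 13.35). In HFoleic 6 of 8 mice lay below every reference mouse, and in HFepa all but 1 lay inside the reference range. HFoleic was at 0.674 of the reference level (log2 difference -0.57, SE 0.12, adjusted p = 0.00602, limma). HFepa differed from the reference group by -0.13 (adjusted p = 0.716) and from HFoleic by 0.43 (adjusted p = 0.252, above the HFoleic mean in 7 of 7 mice). A second Crat probe, at chr2:30265479-30265538, gave -0.19 in HFoleic against reference and did not pass (adjusted p = 0.336). Cpt2, which hands acyl groups back to coenzyme A inside the mitochondrion, differed by -0.07 and did not pass.

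The mitochondrial beta-oxidation cycle was read from Acadvl, Acadl, Acadm and Acads, the dehydrogenases for very long to short chains, Hadha and Hadhb of the trifunctional protein, Hadh, the thiolase Acaa2 and Etfdh, which passes the electrons on to ubiquinone. At the brightest probe of each gene 0 of the 9 passed in any comparison by limma, and at an unadjusted p under 0.05 there was 1 in HFoleic against reference, 0 in HFepa against reference and 2 in HFepa against HFoleic. Their log2 differences in HFoleic against reference ran from -0.16 for Hadha to 0.22 for Hadh, with a median of -0.0004. For these brightest probes the 95% interval of all 9 genes lay within ±0.5 in every comparison, with bounds from -0.37 to 0.38 in HFoleic against reference, -0.16 to 0.29 in HFepa against reference and -0.35 to 0.45 between the lineages. Among all 39 members that held for 24, 28 and 27 genes. The dimmer probes were less uniform: in HFoleic against reference a second Etfdh probe, which matched no RefSeq symbol, gave -0.47 with a 95% interval of -0.69 to -0.26 and passed (adjusted p = 0.00642, limma), and a Hadhb probe gave -0.31 with an interval of -0.66 to 0.04 (adjusted p = 0.309). With the mean over the probes of each gene Etfdh was called.

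Hadh, the short-chain hydroxyacyl-CoA dehydrogenase (chr3:130936889-130936948), came nearest to a call in the cycle. It ranged from 13.59 to 13.96 in reference mice (median 13.75), from 13.74 to 14.14 in HFoleic mice (median 13.98) and from 13.51 to 14.15 in HFepa mice (median 13.74). The 3 ranges overlapped, and 7 of 8 HFoleic mice were above the reference mean. The differences were 0.22 in HFoleic (SE 0.08, adjusted p = 0.0888, limma) and 0.04 in HFepa (adjusted p = 0.887). Without reference replicate 8 Hadh was called in HFoleic against reference. The auxiliary enzymes of unsaturated chains, Eci1 and Decr1 in mitochondria and Ech1 and Eci2 in both organelles, did not pass either. The largest value was 0.22 for Ech1 in HFepa against reference (adjusted p = 0.254). It includes reference replicate 5, the lowest reference mouse for Ech1 at 14.48.

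Bdh1, the mitochondrial enzyme that turns acetoacetate into beta-hydroxybutyrate, rose in HFoleic. At chr16:31457378-31457437 it spanned 13.45 to 14.10 in reference mice (median 13.80), 14.09 to 14.55 in HFoleic mice (median 14.25) and 13.82 to 14.42 in HFepa mice (median 13.97). The lowest HFoleic mouse was level with the highest reference mouse, and the other 7 were above every reference mouse. HFoleic was 1.43 times the reference level (log2 difference 0.51, SE 0.11, adjusted p = 0.0052, limma), and a second probe of the same gene gave 0.49 (adjusted p = 0.00974). HFepa was above the reference mean in 7 of 7 mice, with a difference of 0.30 that did not pass (adjusted p = 0.214), and differed from HFoleic by -0.21 (adjusted p = 0.569).

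**Figure D2:**
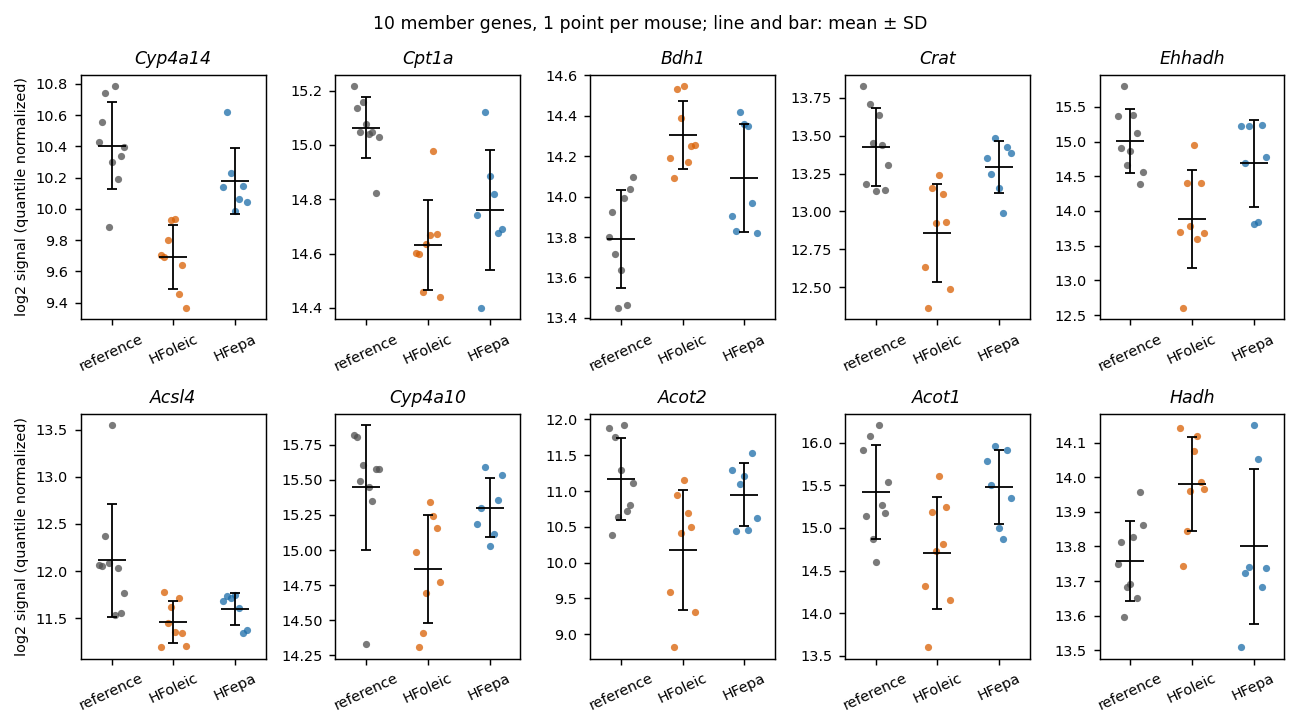
Log2 signal of 10 members in every mouse, in the groups reference (9), HFoleic (8) and HFepa (7); each point is a mouse and bars are the mean ± SD. The points of Cyp4a14 do not overlap between HFoleic and HFepa, Bdh1 is higher in HFoleic than in reference mice, and Ehhadh and Acot2 have the widest scatter within HFoleic.

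Acyl-CoA thioesterases release free fatty acids from coenzyme A, Acot2 in mitochondria, Acot1 in the cytosol and Acot3, Acot4 and Acot8 in peroxisomes. Acot2 (chr12:85334553-85334612) spanned 10.38 to 11.92 in reference mice (median 11.11), 8.82 to 11.15 in HFoleic mice (median 10.45) and 10.44 to 11.53 in HFepa mice (median 11.10). HFoleic held the 3 mice that were below every reference mouse, and the HFepa range lay inside the reference range. In HFoleic Acot2 was at 0.504 of the reference level (log2 difference -0.99, SE 0.29, adjusted p = 0.038, limma; lower in 8 of 8 mice). That call was lost without reference replicate 5 (-0.97, adjusted p = 0.0539) and without HFoleic replicate 2, the lowest mouse (-0.79, adjusted p = 0.0806). HFepa differed from the reference group by -0.22 (adjusted p = 0.826) and from HFoleic by 0.77 (adjusted p = 0.411, 7 of 7 mice above the HFoleic mean).

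Acot1 (chr12:85358452-85358511), a near neighbour of Acot2 on the chromosome and close to it in sequence, ranged from 14.60 to 16.21 in reference mice (median 15.27), from 13.60 to 15.61 in HFoleic mice (median 14.77) and from 14.87 to 15.96 in HFepa mice (median 15.51). All 3 ranges overlapped. Its HFoleic difference was -0.72 (SE 0.26, adjusted p = 0.0911, limma), its HFepa difference 0.06 (adjusted p = 0.956), and HFepa against HFoleic was 0.78 (adjusted p = 0.33, 7 of 7 mice above the HFoleic mean). Without reference replicate 5 Acot1 was called in HFoleic against reference, and it was also called without HFoleic replicate 5. Acot3 gave -0.54 and Acot4 -0.40 in HFoleic against reference, and 0.81 and 0.56 in HFepa against HFoleic, with adjusted p from 0.229 to 0.42. How far the probes of this family bind one another's transcripts was not tested.

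In the peroxisome, Ehhadh, the bifunctional enzyme that hydrates and oxidises enoyl-CoA, was the gene that passed. At chr16:21761914-21761973 its log2 signal was 14.38 to 15.80 in reference mice (median 14.90), 12.60 to 14.95 in HFoleic mice (median 13.74) and 13.81 to 15.23 in HFepa mice (median 14.77). The HFoleic mice were widely spread, with replicate 2 the lowest, and 5 of the 8 were below every reference mouse. HFoleic was at 0.461 of the reference level (log2 difference -1.12, SE 0.27, adjusted p = 0.0121, limma; lower in 8 of 8 mice), and without HFoleic replicate 2 the difference was -0.93 (adjusted p = 0.025). HFepa differed from the reference group by -0.32 (adjusted p = 0.684) and from HFoleic by 0.80, with an unadjusted 95% interval of 0.20 to 1.39 and an adjusted p of 0.349. Hsd17b4, the other bifunctional enzyme, the thiolases Acaa1a and Acaa1b and the reductase Decr2 did not pass. With Ehhadh counted, 4 of these 5 cycle genes were above 0 in HFoleic against reference, the highest at 0.14, where 51.59% of all genes lay below 0. Crot, which makes carnitine esters of the shortened chains for export, Acot8 and Pex11a, a membrane protein of peroxisome division, did not pass in any comparison. In HFepa against reference 9 of the 10 peroxisomal members had values above 0, where 49.73% of all genes lay below 0. The 10 values ran from -0.32 to 0.27, none of them past the test, and the count of signs was not tested. Reference replicate 5 was the lowest reference mouse for Acaa1a, Acaa1b, Decr2, Crot, Acot3, Acot4 and Acot8 among them. Its Acot8 signal was 12.54, beside a reference mean of 13.12 and an HFepa mean of 13.15. The signs were not counted without this mouse.

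Omega-oxidation begins with the Cyp4a hydroxylases, Cyp4a10 and Cyp4a14, which are classical PPARalpha-responsive genes. The sequence of a probe of each is shown because the family has close copies. For Cyp4a14 it is the probe from which the gene was read, and for Cyp4a10 a dimmer one.
Cyp4a14 probe, chr4:115168609-115168668, minus strand, mm9: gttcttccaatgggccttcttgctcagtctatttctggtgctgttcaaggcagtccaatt
Cyp4a10 second probe, chr4:115198463-115198522, plus strand, mm9: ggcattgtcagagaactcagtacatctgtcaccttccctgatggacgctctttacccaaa

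Cyp4a14 was lower in HFoleic than in reference mice and was the 1 member whose HFoleic and HFepa mice did not overlap. It spanned 9.88 to 10.79 in reference mice (median 10.40), 9.37 to 9.93 in HFoleic mice (median 9.70) and 9.99 to 10.62 in HFepa mice (median 10.14). HFepa mice lay inside the reference range and above all HFoleic mice. HFoleic was at 0.61 of the reference level (log2 difference -0.71, SE 0.11, adjusted p = 0.000718, limma), with 6 of 8 mice below every reference mouse. HFepa differed from the reference group by -0.23 (adjusted p = 0.401). HFepa against HFoleic was 0.49, with an unadjusted 95% interval of 0.24 to 0.73, and did not pass over all probes (adjusted p = 0.173). Groups without overlap in that comparison were found for 1 of 39 members and for 0.139% of all genes, and in HFoleic against reference for 0 of 39 members and 0.579% of genes.

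Cyp4a10 was read from a probe that spans a splice junction (chr4:115205268-115205756). Its log2 signal was 14.33 to 15.82 in reference mice (median 15.58), 14.31 to 15.35 in HFoleic mice (median 14.88) and 15.03 to 15.59 in HFepa mice (median 15.30). The lowest reference value was that of replicate 5, the next being 15.35, and 1 HFoleic mouse lay below it. HFoleic was at 0.668 of the reference level (log2 difference -0.58, SE 0.17, adjusted p = 0.0352, limma; lower in 8 of 8 mice), and without reference replicate 5 the difference was -0.72 (adjusted p = 0.00233). Without HFoleic replicate 2, the mouse below it, the call was lost (-0.50, adjusted p = 0.0763). The second probe, printed above, gave -0.66 (adjusted p = 0.0316) and the remaining probe -0.64 (adjusted p = 0.086). HFepa differed by -0.15 from the reference group (adjusted p = 0.79) and by 0.44 from HFoleic (adjusted p = 0.425, 7 of 7 mice above the HFoleic mean). The accessions listed for all 3 probes belong to both Cyp4a10 and Cyp4a32, so the signal may be shared between these copies.

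**Figure D3:**
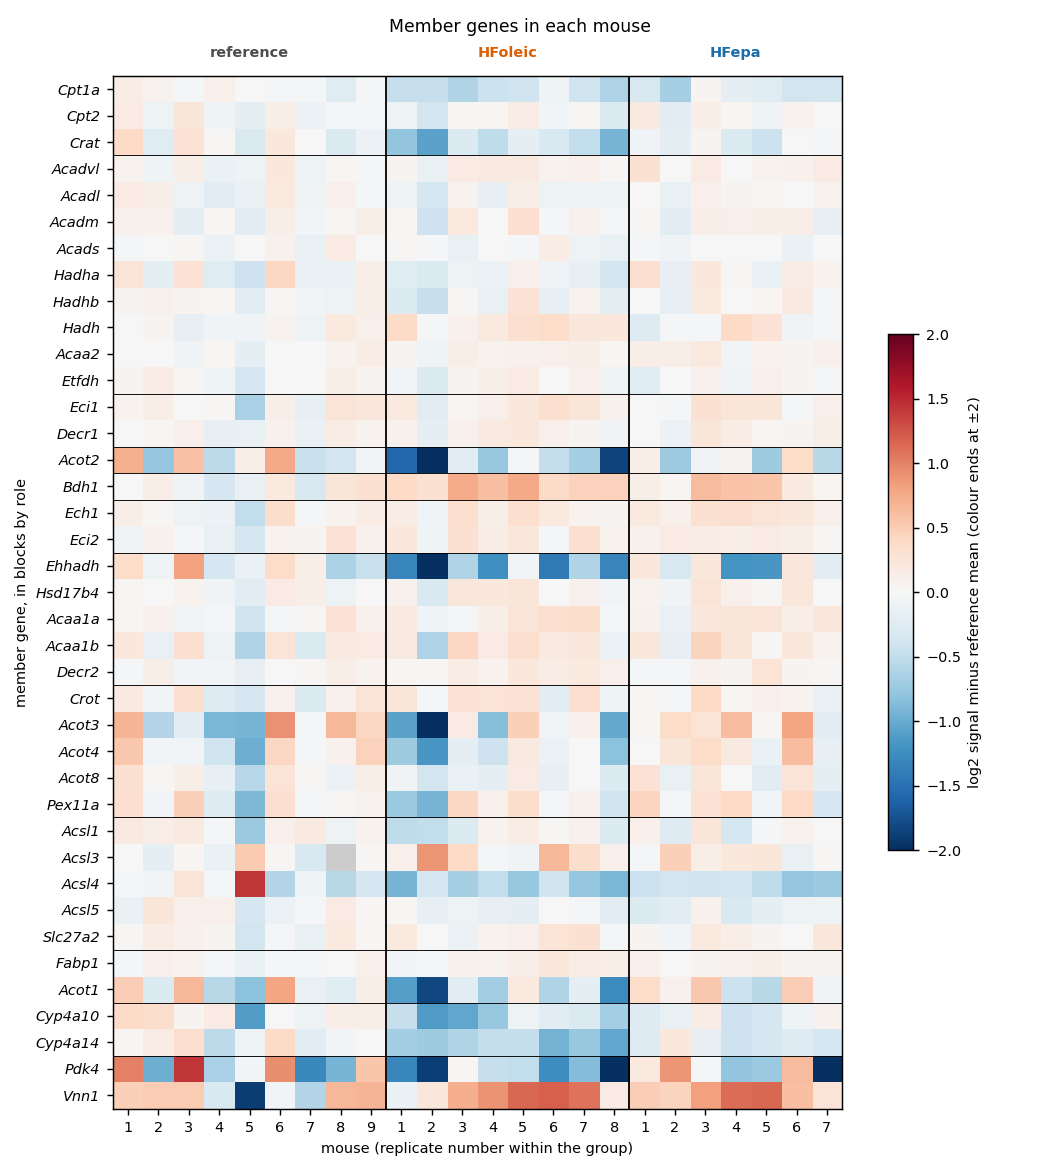
Log2 signal of the 39 members in each of the 24 mice minus the reference mean, with genes by role down the side and replicates by group across; the colours end at ±2, and the grey cell is a spot of Acsl3 left out in reference replicate 8. Reference replicate 5 is low for most members and high for Acsl4, and HFoleic replicate 2 is the lowest of its group for 26 members.

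Among the genes of fuel choice neither passed the test. Pdk4, the kinase that turns off pyruvate dehydrogenase when fat is burned, had the largest spread within groups of all members (residual SD 0.96 on the log2 scale), and its difference of -1.11 in HFoleic against reference did not pass (SE 0.43, adjusted p = 0.126, limma). HFepa gave -0.27 against reference and 0.84 against HFoleic (adjusted p = 0.861 and 0.573). Vnn1, a pantetheinase that feeds coenzyme A turnover, differed by 0.66 in HFoleic and 0.70 in HFepa from the reference group without passing (adjusted p = 0.171 and 0.288). Both Vnn1 differences include reference replicate 5, the lowest reference mouse at 9.75 against 11.05 for the next. Fabp1, the liver's cytosolic fatty acid binding protein, had the smallest spread of all members (residual SD 0.0733) and differed by 0.09 in HFoleic and 0.07 in HFepa (adjusted p = 0.276 and 0.551).

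All 8 called members kept their direction within each of the 3 slides, which held mice of every group, and in both rows of array positions. For HFoleic against reference the within-slide log2 differences ran from -0.89 to -0.62 for Cyp4a14, from -0.54 to -0.25 for Cpt1a, from -0.73 to -0.44 for Crat and from -1.40 to -0.79 for Ehhadh. Acsl4 ran from -1.07 to -0.44, Cyp4a10 from -0.59 to -0.53 and Acot2 from -1.41 to -0.53, while Bdh1 ran from 0.44 to 0.60. Cyp4a14 in HFepa against HFoleic was 0.34 to 0.63 within slides. Both comparisons with the reference group use the same 9 reference mice, and the members described one by one were picked for their smallest p in any comparison, which was mostly HFoleic against reference, so a smaller value in HFepa is not a test of the lineages.

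How members varied among mice of the same group was examined by their correlation with Cyp4a14, after group means were removed, over 24 mice. Of 38 correlations, 1 passed at an adjusted p under 0.05, that of Pdk4, and with the processed signal in place of the median signal 10 passed. Its Pearson r was 0.672 (permutation p = 0.00067, adjusted p = 0.0255) and its Spearman rho 0.71 (permutation p = 0.00028, adjusted p = 0.0106), two-sided, with 100000 permutations within groups. Without the 2 mice farthest from the median of Cyp4a14, r was 0.668, and within the groups it was 0.62 in reference, 0.771 in HFoleic and 0.685 in HFepa mice. Crot came next with r = 0.564 (permutation, adjusted p = 0.11), followed by Acot1 with 0.541 (adjusted p = 0.11). Cyp4a10, of the same family as Cyp4a14, had an r of 0.0786, and Cpt1a had the lowest, -0.266. Over all mice the median r was 0.278, and 30 of the 38 were above 0. Correlations with Cyp4a14 were not computed for genes outside the members. Whether these values are particular to the pathway was therefore not tested. By group, 35 of 38 were above 0 in reference mice (median 0.388) and 29 in HFoleic mice (median 0.355), but 14 in HFepa mice (median -0.326), where Acaa1a had the lowest value, -0.903. HFepa replicate 2, which had the highest Cyp4a14 of its group, decided that: without it, a step chosen after the data were seen, 29 of 38 were above 0 in the 6 HFepa mice left (median 0.369).

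**Figure D4:**
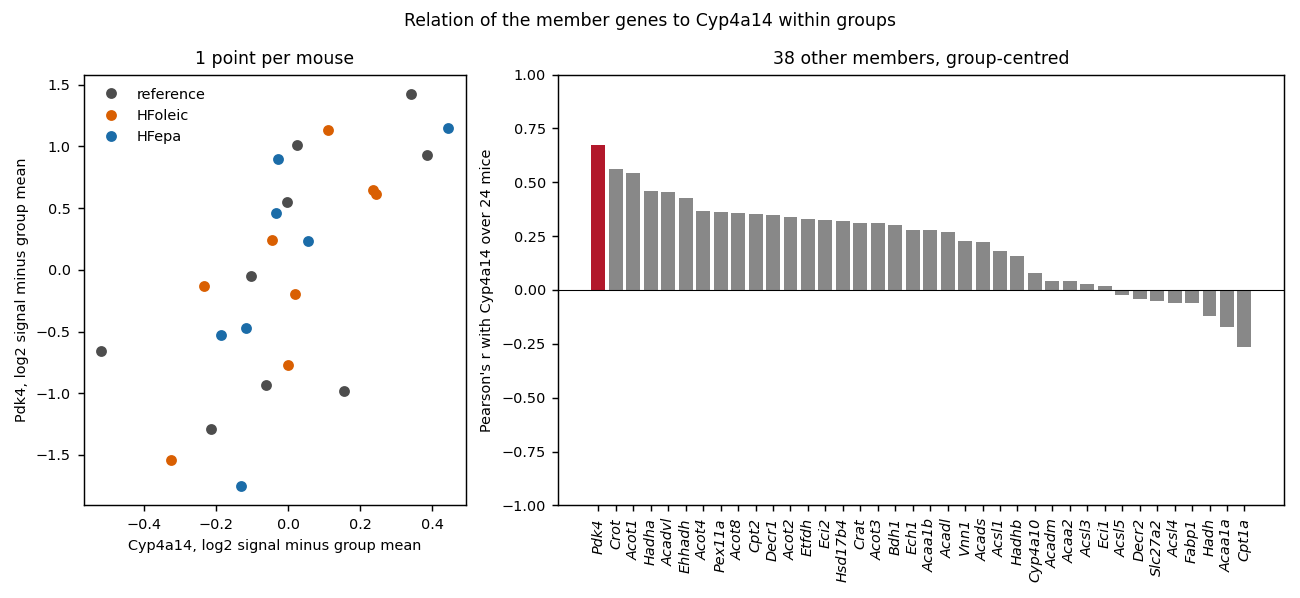
Left, Pdk4 against Cyp4a14, both as log2 signal with the mean of each group removed, 1 point per mouse; right, Pearson r with Cyp4a14 for the other 38 members. Pdk4 and Cyp4a14 are positively related in all 3 groups (r = 0.672 over 24 mice), and the bars run from -0.266 for Cpt1a to that value.

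Promoters were available for 32 of the 39 members, from RefSeq on GRCm38.p6 and covering 250 bases before to 50 after each start, and were searched on both strands for 2 motifs. The first was the direct repeat of AGGTCA with any 1 base between the copies, the kind bound by PPARalpha with its partner RXR, and the second CCAAT, bound by NF-Y. With at most 1 mismatch the repeat was in 0.554% of 32851 promoters and in 1 of 35 member promoters, that of Fabp1. With at most 2 it was in 3.86% and in 2 of 35, those of Fabp1 and Acot4. Cyp4a10, Cyp4a14 and Crat, which fell in HFoleic, were among the members without an available promoter. Sequence outside the stated window was not searched for any member. CCAAT was in 37.4% of all promoters and in 18 of 35 member promoters, which belong to 17 members. The stretches that hold these matches are shown for the members with the repeat and for Cpt1a and Ehhadh, which fell in HFoleic. Acot2, which also fell, held CCAAT too and is not shown. Capitals mark the match.
Fabp1, chr6:71199785-71199844, plus strand, GRCm38.p6: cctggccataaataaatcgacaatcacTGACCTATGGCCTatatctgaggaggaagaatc
Acot4, chr12:84038319-84038378, plus strand, GRCm38.p6: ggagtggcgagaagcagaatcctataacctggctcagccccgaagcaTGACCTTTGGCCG
Cpt1a, chr19:3323241-3323300, plus strand, GRCm38.p6: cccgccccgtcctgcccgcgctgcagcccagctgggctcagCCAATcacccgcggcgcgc
Ehhadh, chr16:21787835-21787894, minus strand, GRCm38.p6: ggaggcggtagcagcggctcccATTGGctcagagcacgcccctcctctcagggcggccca

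The repeat matched on the reverse strand in Fabp1, at positions -67 to -55 counted from the start, with 1 mismatch, and in Acot4, at -13 to -1, with 2 mismatches. CCAAT lay at -19 to -15 in Cpt1a and, on the reverse strand, at -38 to -34 in Ehhadh. A match describes these letters and not a bound site. Neither Fabp1 nor Acot4 passed the test in any comparison.

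Beyond the members, 95 further genes of the pathway were listed, also with earlier results of these data known, and 93 of them were tested. In HFoleic against reference 4 rose and 11 fell, beside 4.52% higher and 3.55% lower among all genes, and 0 passed in HFepa against reference or between the lineages by limma, where 6 were higher and 12 lower, and 8 higher and 4 lower, at an unadjusted p under 0.05. Their median was -0.02. Of the 8 genes of ketone body handling 2 rose: Aacs, the cytosolic acetoacetyl-CoA synthetase that turns ketone bodies to lipid synthesis, by 1.37 (SE 0.25, adjusted p = 0.00201), and Bdh2 by 0.65 (adjusted p = 0.00744). At an unadjusted p under 0.05 these 8 had 2 higher and 2 lower, and their values ran from -0.49 to 1.37. Of 23 regulators and PPARalpha-responsive genes 5 fell, among them the nuclear receptor Esrra (-0.37, adjusted p = 0.00521), the lipid droplet protein Plin5 (-0.60, adjusted p = 0.00563), the coactivator Ppargc1a (-0.54, adjusted p = 0.0296) and the hormone Fgf21 (-1.07, adjusted p = 0.0296).

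Of 16 other mitochondrial genes, Acacb, which makes the malonyl-CoA that inhibits Cpt1a, fell by 0.78 on the log2 scale (adjusted p = 0.0226, limma), Cpt1b, the muscle-type partner of Cpt1a, named after its values were seen, fell by 0.49 (adjusted p = 0.0493) and Acsm5 rose by 0.44 (adjusted p = 0.0287). The reference group held the mouse with the high skeletal muscle sum, replicate 3, and its part in the Cpt1b difference was not tested. Of 24 other peroxisomal genes the peroxins Pex19 (-0.26, adjusted p = 0.0102) and Pex16 (-0.29, adjusted p = 0.0232) fell. A further 2 of 7 omega-oxidation genes fell and 1 of 15 for uptake and activation rose. Ppara itself, which was picked after its values were seen, differed by 0.16 in HFoleic against reference (adjusted p = 0.444, limma) and did not pass in the other comparisons.

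Genes of fasting and of the daily clock were read beside these members. Of 12 gluconeogenesis and fasting genes 8 fell in HFoleic against reference, where 3.55% of all genes did, with a median log2 difference of -0.58. In HFepa against reference 1, Got1, fell, beside 0.391% of all genes called, with a median of -0.45. At an unadjusted p under 0.05 (limma) 8 of the 12 were lower in each of these comparisons. That level was reached, in either direction, by 22.31% of genes in HFoleic and 14% in HFepa. The log2 of the summed signals of the 12 genes was 18.6 to 19.3 in reference mice, 18.244 to 18.543 in HFoleic mice and 18.4 to 18.8 in HFepa mice, so that all HFoleic mice lay just below the lowest reference mouse. Of 7 tested clock genes of the Per phase 1 passed, Nr1d2, higher in HFoleic by 0.58 (adjusted p = 0.01, limma), beside 8.07% of all genes. Their median difference was 0.58. At an unadjusted p under 0.05 there were 5 higher and 1 lower, a level that 22.31% of genes reached. Of 4 tested genes of the Bmal1 phase 0 passed, with 1 lower at that unadjusted level. A score of the Per phase minus the Bmal1 phase had medians of -0.668 in reference, 1.032 in HFoleic and 0.476 in HFepa mice, with overlapping ranges. With this score as a covariate, a limma fit chosen after the data were seen, 5 members were called in HFoleic against reference, and Ehhadh (-0.87, adjusted p = 0.083), Acsl4 (-0.61, adjusted p = 0.102) and Acot2 (-0.88, adjusted p = 0.134) were not. The part of feeding time or hour of killing in the members' values was not tested.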

How the data were processed

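Liver RNA of 24 mice was hybridised to single-colour Agilent arrays. The deposited spot values are intensity measured by Feature Extraction 10.10.1.1 (submitters' notes), with other columns of 0 and 1 marks for outlier, saturated and well-above-background spots; a second deposited table holds the authors' log2 values, quantile normalized, used as an alternative. From the median signal, outlier spots were dropped, spots of a probe averaged, probes kept if well above background on at least 75% of arrays of a group, and log2 values quantile normalized, after the study's methods. limma 3.58.1 (R 4.3.3) was fitted to 3 group means over all 24 arrays with Benjamini-Hochberg adjustment over 30003 probes. A gene was read from its brightest tested probe; of 59 member probes 58 were tested. Values are given for members called in any comparison, filled up to the 10 with the smallest p, and for at most 10 called genes of the other pathway lists. Members and lists were chosen with earlier results of these data known. Alternatives were the deposited log2 table, the processed signal, normexp, no filter, slide, row or replicate number as a block, each array left out and others given below. Array number limits the precision. Correlations used scipy 1.17.1. The fit was tested on simulated data. Probe coordinates are mm9, as the files give them; promoters are RefSeq, GRCm38.p6.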

Additional observations from a re-analysis of the deposited data

Results flagged for a closer look

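A mouse at the end of its group, far from the next one, was found in 14 of 117 groups of mice tested (39 members in 3 groups; Dixon's 95% criterion), and chance gives about 5.8. The gap to the nearest mouse is given as a share of the group's whole range. Reference replicate 5 accounted for 8 of the 14. It was lowest for Acaa1a (gap 0.511), Acsl1 (0.681), Cyp4a10 (0.683; 14.33 against 15.35 for the next mouse), Eci1 (0.525), Etfdh (0.528) and Vnn1 (0.505; 9.75 against 11.05), and highest for Acsl3 (0.574) and Acsl4 (0.586; 13.55 against 12.37). Reference replicate 8 was lowest for Cpt1a (0.518; 14.82 against 15.03).

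Among HFoleic mice, replicate 2 was lowest for Acaa2 (0.584) and replicate 6 highest for Cpt1a (0.568; 14.98 against 14.67). Among HFepa mice, replicate 2 was lowest for Acaa1a (0.598) and highest for Cyp4a14 (0.617; 10.62 against 10.23), and replicate 5 was highest for Decr2 (0.611).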

How the results depend on the processing

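No direction of a called member turned under the 12 alternatives or with any of the 24 mice left out. HFoleic against reference had 8 members called, and 5 without a filter on dim probes, 5 with limma on those 2 groups alone and 5 with the clock covariate, which was chosen after seeing the data; with 1 mouse left out the count ran from 5, without HFoleic replicate 8 or reference replicate 3, to 9. Cyp4a14, Cpt1a, Bdh1 and Crat passed in all of these, and Ehhadh in all but the clock covariate. Acsl4, Cyp4a10 and Acot2 lost the call in 4, 10 and 8 of the 24 fits with 1 mouse left out, with adjusted p up to 0.0623, 0.0763 and 0.0874, and in 5 alternatives each, with adjusted p up to 0.109, 0.111 and 0.134. HFepa against reference ran from 0 to 1 with 1 mouse left out (Cpt1a) and HFepa against HFoleic stayed at 0. Same-numbered mice of different groups did not deviate together (22 pairs, r -0.298 to 0.348, median 0.003; 3 of 24 arrays were closest to their own number); with the replicate block 7 members were called in HFoleic against reference, without Cyp4a10 (adjusted p = 0.104), and 0 in each of the other comparisons. The number of correlations with Cyp4a14 past the threshold went from 1 to 10 with the processed signal and was 1 in the other 4 alternatives. By the methods' t-test 6 members were called in HFoleic against reference, 5 of them shared with limma and the sixth Hadh, and 0 in each of the other comparisons. The cause of these changes was not tested. Values near background have no reliable log2 difference, and no member was that dim.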

Other observations

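Probes of the same member did not always give the same value. For Acsl1 the brightest probe gave a log2 difference of -0.15 in HFoleic against reference (adjusted p = 0.524, limma) and the 2 dimmer ones -0.42 and -0.45 (adjusted p = 0.0935 and 0.228). Of the 59 member probes 52 matched the symbol of their own gene in RefSeq and 7 matched none.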
